A study of Rattus norvegicus with 16 samples.

Results

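The histone genes of the rat were followed in kidney cortex across 6 groups of animals, as the probes whose gene name in the scanner files begins with Hist1, Hist2 or Hist3 or with the older stems of the histone variants (H1f, H2af, H2a, H2b, H3f, H3c or H4c followed by a letter or digit). The name rule gave 63 probes with 45 gene names, out of 45598 probes with 34765 gene names on the array. Of these, 41 probes for 33 genes belong to the replication-dependent clusters and 22 probes for 12 genes to the variant histones. The gene named H3f3a, which encodes the same replication-independent H3 as H3f3b, had no probe under this rule.

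Core histones (H2A, H2B, H3 and H4) form the spool around which DNA is wound in the nucleosome, and the linker histone H1 binds where the DNA enters and leaves it. Genes of the replication-dependent clusters are transcribed mainly in S phase, and their short mRNAs end in a conserved stem-loop in place of a poly(A) tail. Variant histones such as H2A.Z, macroH2A and the H3 encoded by H3f3b are made throughout the cell cycle from polyadenylated mRNAs, while H2afx mRNA is known in both forms.

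The rats were male Jcl:SD animals (CLEA Japan) of 2 genotypes, BRCA1+/- (heterozygous from here on) and wild type. BRCA1 acts in DNA repair by homologous recombination. Each genotype gave 2 arrays of untreated cortex, 3 arrays after 1 week and 3 arrays after 3 weeks of ferric nitrilotriacetate (Fe-NTA), an iron chelate that injures the proximal tubule by oxidation. Injections into the peritoneum began at 4 weeks of age, 5 per week: in the first week 2 at 5 mg iron/kg and then 3 at 7 mg iron/kg, and afterwards 10 mg iron/kg. Cortex was removed 48 h after the last injection. The labels give neither age nor vehicle for the controls, so age and treatment cannot be told apart in the comparisons with control, and neither can time, age and dose between 3 weeks and 1 week. Whether each array of a group stands for its own rat is not in the labels, and the p-values therefore cover the variation among these samples alone, which may be technical.

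Signals are given on a scaled log2 scale, the log2 processed signal of a probe minus the 75th percentile of its array, so that 0 is the level of that percentile. Between 32.7% and 60.4% of probes were well above background per array, and no spot was saturated. Arrays of a group correlated with each other at 0.962 to 0.981 across probes, except that replicate 3 of the wild-type rats at 1 week correlated with the others of its group at 0.904 and 0.905. Brca1 was read by 2 probes: 1 was well above background on no array, and the other was at -3.44 to -0.04 on the 8 heterozygous arrays and at -3.31 to 0.72 on the 8 wild-type arrays. Which stretch of Brca1 is altered was not stated in the labels, and these probes therefore do not check the genotype.

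The probes themselves set what can be read. An H2A coding probe shows how little separates family members: the probes of Hist1h2ah, Hist1h2ak (H2ac4) and Hist2h2aa3 (H2ac18) read the last codons of 3 H2A genes and share 51 of 60 bases (capitals mark the 9 positions that are not shared by all 3), so that each may bind transcripts of the others. The probe of Hist1h1b (H1f5), whose signal changed most at 1 week, reads the end of its reading frame (capitals mark the stop codon). Coordinates are those of the scanner files, whose headers name the build rn4.
Hist1h2ah, chr17:48507180-48507239, minus strand: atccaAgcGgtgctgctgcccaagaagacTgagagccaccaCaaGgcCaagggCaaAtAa
Hist1h2ak, chr17:50436332-50436391, minus strand: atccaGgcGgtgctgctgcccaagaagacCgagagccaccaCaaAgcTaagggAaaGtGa
Hist2h2aa3, chr2:191045014-191045073, minus strand: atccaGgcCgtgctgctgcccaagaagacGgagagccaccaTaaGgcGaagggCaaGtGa
Hist1h1b, chr17:50361225-50361284, plus strand: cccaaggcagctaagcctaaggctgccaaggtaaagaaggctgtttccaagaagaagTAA

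Over all 63 probes, 20 pairs matched at 80% or more of their bases over an overlap of at least 30 bases, 16 of them between probes of different gene names, and 21 probes were in such a pair. The pairs included 3 that were identical over all 60 bases, for Hist2h4, Hist1h2an and Hist3h3. The probe of Hist1h2ail1, an H2A by name, matched the probe of the H3 gene Hist2h3c2 at 40 of 44 bases. Values of these probes may therefore be values of a family of similar mRNAs, but binding across genes was not tested. A Hist1h2ba probe matched a Hist1h2bl probe at 38 of 45 bases. The former was well above background on no array and the latter on all 16. The counts of probes below hold several readings of the same mRNAs, as for the identical pairs.

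The stem-loop that ends replication-dependent mRNAs, written here as DNA, was taken as the hairpin of 6 stem and 4 loop bases that the most probes held. It read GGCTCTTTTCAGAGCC and was inside 6 of the 63 probes. It is shown for a probe of an H2A gene whose signal rose, a probe of an H2B gene whose signal rose and a probe of an H2A gene whose signal fell at 1 week (capitals mark the stem-loop), together with the probe of the variant H2afj that lies on a poly(A) signal (capitals mark AATAAA) and also fell.
Hist1h2ai, bases 32 to 57 of the probe: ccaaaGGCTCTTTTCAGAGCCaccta
Hist1h2bf, bases 35 to 60 of the probe: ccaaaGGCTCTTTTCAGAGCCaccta
Hist2h2aa2, bases 4 to 29 of the probe: aaaacGGCTCTTTTCAGAGCCaccca
H2afj, bases 22 to 47 of the probe: gtccgcagccAATAAAgtcggtgaaa
In the Hist1h2ai and Hist1h2bf (H2bc8) probes 8 and 5 bases followed the stem-loop, so most of the probe read the mRNA body. In the Hist2h2aa2 probe 36 bases followed it. The other 3 probes with the stem-loop, 1 of Hist1h3a with 33 bases after it and 2 of Hist1h2an with 44, were well above background on no array. The letters AATAAA were also inside tested probes of H2afz (from base 751), Hist2h2be (from base 2497) and Hist3h2ba (from base 559). Unlike that of the H2afj probe, their fitted changes at 1 week were above 0 in both genotypes.

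Of the 63 probes, 47 (32 cluster, 15 variant), for 34 genes (26 cluster, 8 variant), passed the detection filter, which asks that all arrays of 1 or more groups be well above background, and were tested. Well above background on all 16 arrays were 42 of them, for 30 genes. Of the 16 probes not tested, 11 were well above background on no array, among them the probes of Hist1h2ac, Hist1h3a, Hist3h2bb and H1fnt. The remaining 5 were so on 1 array (Hist1h2ba), 2 (the testis linker histone Hist1h1t), 3 (H1fx, the linker variant H1f10), 5 (Hist1h2bo) and 15 arrays (H1foo, which has no value on the other).

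After 1 week of Fe-NTA, 15 of the 32 tested cluster probes rose and 3 fell in heterozygous cortex, and 20 rose and 3 fell in wild-type cortex. Over both classes, in heterozygous cortex 17 of the 47 histone probes rose and 4 fell at an adjusted p under 0.05, 21 in all, against a background of 7.45% of all 20431 probes tested (limma). In wild-type cortex 27 rose and 4 fell, 31 in all, against a background of 27.6%. The background of rises alone was 4.37% in heterozygous and 13.3% in wild-type cortex. The median change of the 47 probes was 0.83 (log2) in heterozygous and 1.18 in wild-type cortex, while the median of all probes was -0.02 and -0.01. A probe detected only after treatment passed the filter because it was high there. Among the 42 histone probes well above background on all 16 arrays, 16 rose and 3 fell in heterozygous cortex, against 5.32% of all probes so detected (2.57% for rises), and 25 rose and 3 fell in wild-type cortex, against 24.9% (9.65% for rises).

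Groups did not overlap for 37 of the 47 probes in heterozygous cortex (44.8% of all probes tested) and for 42 in wild-type cortex (45.4%), and every probe called was among them. With 1 probe per gene, 13 of the 26 cluster genes rose and 2 fell in heterozygous cortex, with a median change of 1.06. In wild-type cortex 16 rose and 2 fell, with a median of 1.75. Of the 8 variant genes 1 rose in heterozygous cortex (median 0.51) and 4 in wild-type cortex (median 1.00). The shares of all probes that rose and fell were 4.37% and 3.08% in heterozygous and 13.3% and 14.3% in wild-type cortex.

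Since the tissue was measured in bulk, more cells of a type cannot be told apart from more RNA per cell. Leaving out heterozygous control replicate 1, heterozygous control replicate 2 or heterozygous 1-week replicate 3 left 10, 11 and 12 histone probes called in heterozygous cortex, whereas leaving out any 1 array left 28 to 35 in wild-type cortex.

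**Figure D1:**
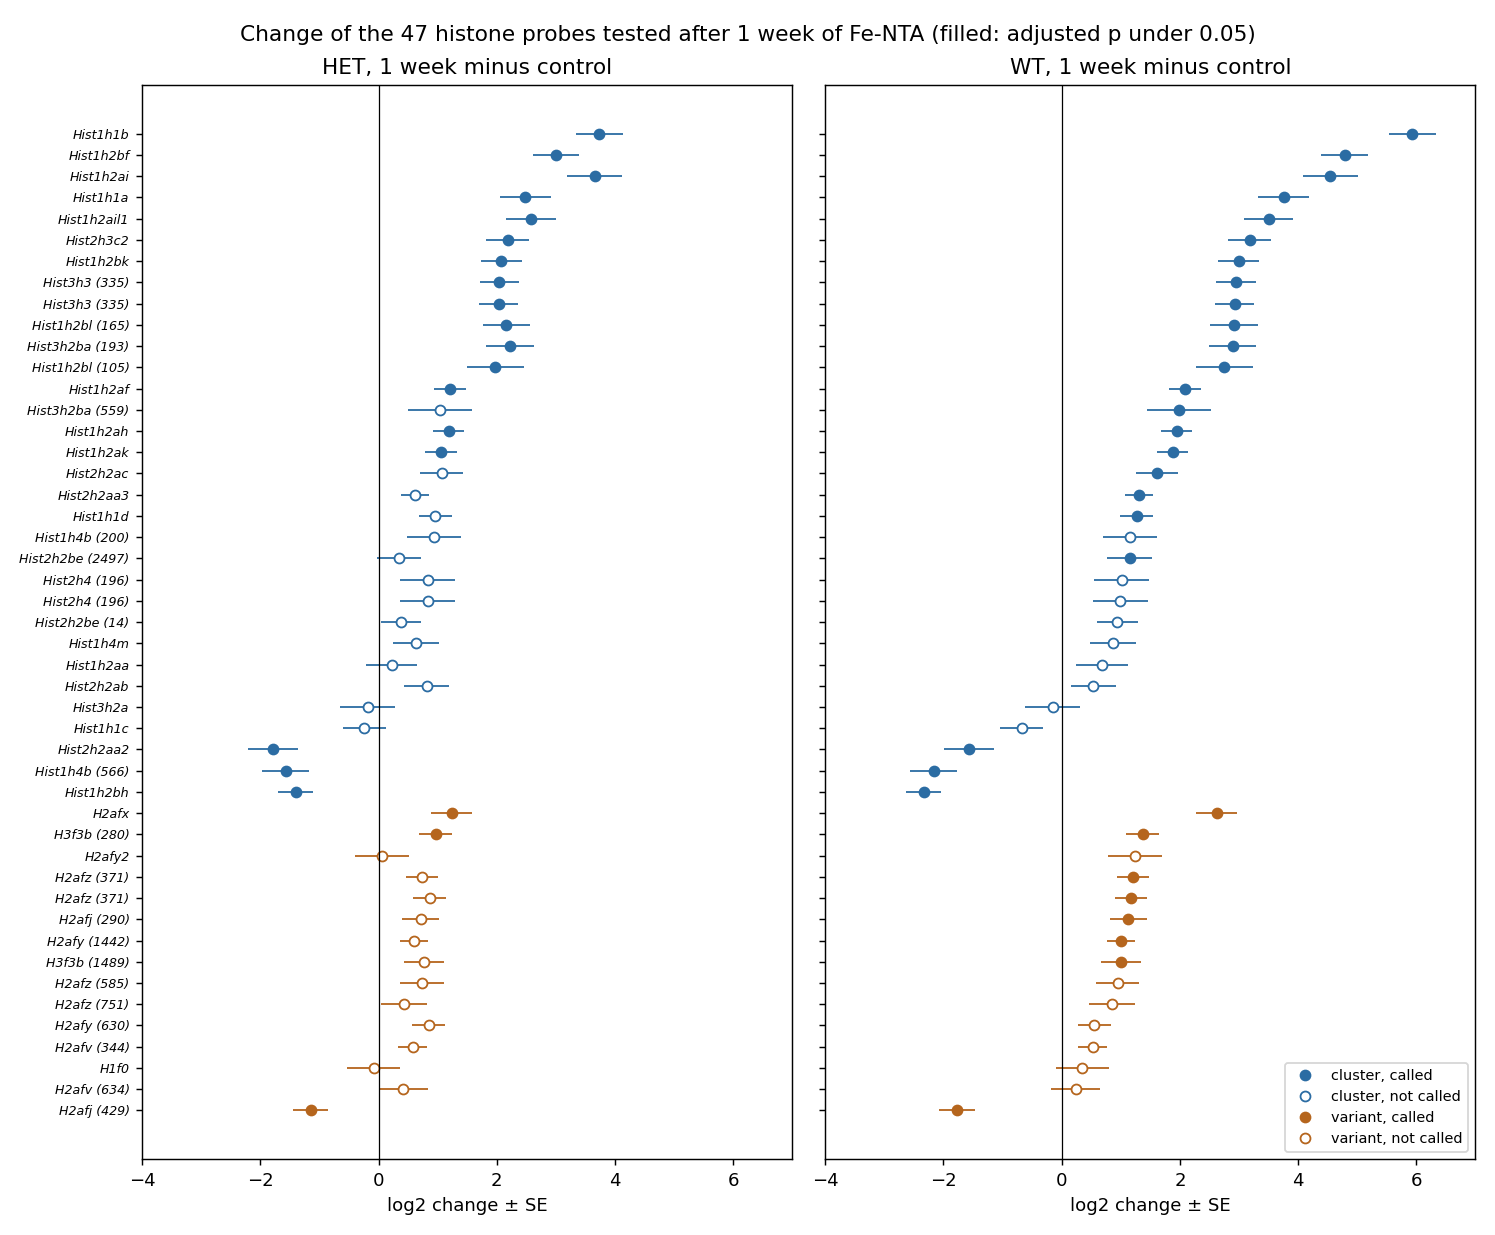
Change of each of the 47 tested histone probes after 1 week of Fe-NTA (log2, treated minus control), heterozygous cortex on the left and wild-type cortex on the right. Points are fitted changes, bars their standard errors and filled points are called at an adjusted p under 0.05. Most cluster probes lie above 0, and the 4 probes called below 0 are those of Hist1h2bh, Hist1h4b, Hist2h2aa2 and H2afj in both genotypes.

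Among the linker histones the cluster gene Hist1h1b changed most. In heterozygous cortex its signal was -0.72 and -0.11 in controls, 2.85, 3.05 and 4.05 after 1 week and 1.84, 2.24 and 2.20 after 3 weeks. Wild-type cortex gave -0.05 and -0.98 in controls, 5.59, 5.22 and 5.43 after 1 week and 2.57, 2.35 and 1.58 after 3 weeks. In each genotype all arrays after 1 week were above those after 3 weeks, which were above the controls. The change at 1 week was 3.73 ± 0.40 (SE) in heterozygous cortex (13.3-fold, adjusted p = 0.00014, limma) and 5.93 ± 0.40 in wild-type cortex (adjusted p = 8.2e-07). It was called without any 1 of the arrays compared.

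Hist1h1a (H1f1), another S-phase linker histone, was at 4.26, 3.07 and 4.65 after 1 week in heterozygous cortex, against 1.45 and 1.58 in controls. Its wild-type signal was at 4.58, 5.70 and 5.50 after 1 week, against 1.27 and 1.74 in controls. No treated array overlapped the controls, and the changes were 2.48 ± 0.43 (adjusted p = 0.0031, limma) and 3.76 ± 0.43 (adjusted p = 3e-05). Hist1h1d (H1f4) rose in wild-type cortex by 1.27 ± 0.28 (adjusted p = 0.0037, limma), and its change of 0.96 in heterozygous cortex lay just outside the threshold (adjusted p = 0.05 after rounding). The probe of Hist1h1c, which starts at base 1423 of its transcript, gave -0.24 in heterozygous and -0.68 in wild-type cortex and was not called (adjusted p = 0.76 and 0.19, limma).

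Of the 11 cluster genes that are H2A by name 5 rose and 1 fell in heterozygous cortex at 1 week (median 1.05), where 7.45% of all probes were called and 4.37% rose. In wild-type cortex 7 rose and 1 fell (median 1.61), where 27.6% of all probes were called and 13.3% rose. The 11 include Hist1h2ail1, whose probe resembles an H3 probe. They also include Hist2h2aa3 and Hist2h2aa2, the gene that fell, whose probes may read the same mRNA. The Hist1h2ai probe was at 2.27, 2.50 and 3.87 after 1 week in heterozygous cortex, against -1.04 and -0.51 in controls. On wild-type arrays it was at 4.82, 4.33 and 5.45 after 1 week, against 0.50 and 0.14 in controls. The groups did not overlap, and the changes were 3.66 ± 0.46 (12.6-fold, adjusted p = 0.00038, limma) and 4.55 ± 0.46 (adjusted p = 1.3e-05).

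The other H2A probes that rose did so by less. Hist1h2af changed by 1.21 in heterozygous and 2.09 in wild-type cortex (adjusted p = 0.014 and 7.5e-05, limma), Hist1h2ah by 1.19 and 1.94 (0.013 and 0.0001) and Hist1h2ak by 1.05 and 1.88 (0.026 and 0.00014). These heterozygous calls were lost without either heterozygous control (adjusted p 0.075 to 0.18) or without heterozygous 1-week replicate 3 (0.062 to 0.11), and that of Hist1h2ak also without heterozygous 1-week replicate 1 (0.052). Hist2h2aa3 rose in wild-type cortex by 1.30 ± 0.24 (adjusted p = 0.0011, limma), and its change of 0.62 in heterozygous cortex was not called (adjusted p = 0.14).

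Of the 6 cluster H2B genes 4 rose and 1 fell in each genotype, with a median of 2.12 in heterozygous and 2.90 in wild-type cortex. Of all probes 4.37% rose and 3.08% fell in heterozygous cortex, and 13.3% rose and 14.3% fell in wild-type cortex. The gene that fell was Hist1h2bh, described below. The Hist1h2bf probe was at 4.25, 3.58 and 5.28 after 1 week in heterozygous cortex, against 1.21 and 1.53 in controls. In wild-type cortex it was at 5.81, 5.69 and 6.37 after 1 week, against 1.15 and 1.19 in controls. The treated arrays of both genotypes were above the controls without overlap, by 3.00 ± 0.40 (8.00-fold, adjusted p = 0.00054, limma) and 4.79 ± 0.40 (adjusted p = 4e-06). Hist1h2bk (H2bc12) rose by 2.08 and 2.99 (adjusted p = 0.0024 and 3.1e-05).

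Both H3 genes of the clusters that were tested rose in both genotypes, where 4.37% of all probes rose in heterozygous and 13.3% in wild-type cortex. Hist2h3c2 was at 6.94, 6.37 and 7.49 after 1 week in heterozygous cortex, against 4.78 and 4.72 in controls. For the wild type it was at 7.46, 7.49 and 8.65 after 1 week, against 4.60 and 4.78 in controls. The groups did not overlap, and the changes were 2.19 ± 0.36 (adjusted p = 0.0024, limma) and 3.18 ± 0.36 (adjusted p = 3e-05). Hist3h3 (H3f4 in the current annotation), read by 2 identical probes, changed by 2.03 and 2.04 in heterozygous cortex and by 2.93 and 2.95 in wild-type cortex. Hist1h2ail1, whose probe shares most of its overlap with the H3 probes, rose by 2.58 and 3.50 (adjusted p = 0.002 and 4e-05, limma).

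None of the 3 cluster H4 genes was called in either genotype with 1 probe per gene (limma; 0 of 3 in heterozygous and 3 of 3 in wild-type cortex had an unadjusted p under 0.05). Their changes were 0.63 to 0.94 in heterozygous cortex and 0.87 to 1.15 in wild-type cortex. The Hist1h4b probe in the reading frame was at 6.36, 6.55 and 7.30 after 1 week in heterozygous cortex, against 5.85 and 5.74 in controls. The wild-type values were 6.79, 6.65 and 8.50 after 1 week, against 5.96 and 6.36 in controls. The treated arrays did not overlap the controls in either genotype, but wild-type replicate 3 was far above the rest of its group, and the changes had an adjusted p of 0.24 and 0.073 (limma). The difference between H4 and the other types was not tested, and the counts at an unadjusted p have no share of all probes beside them.

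**Figure D2:**
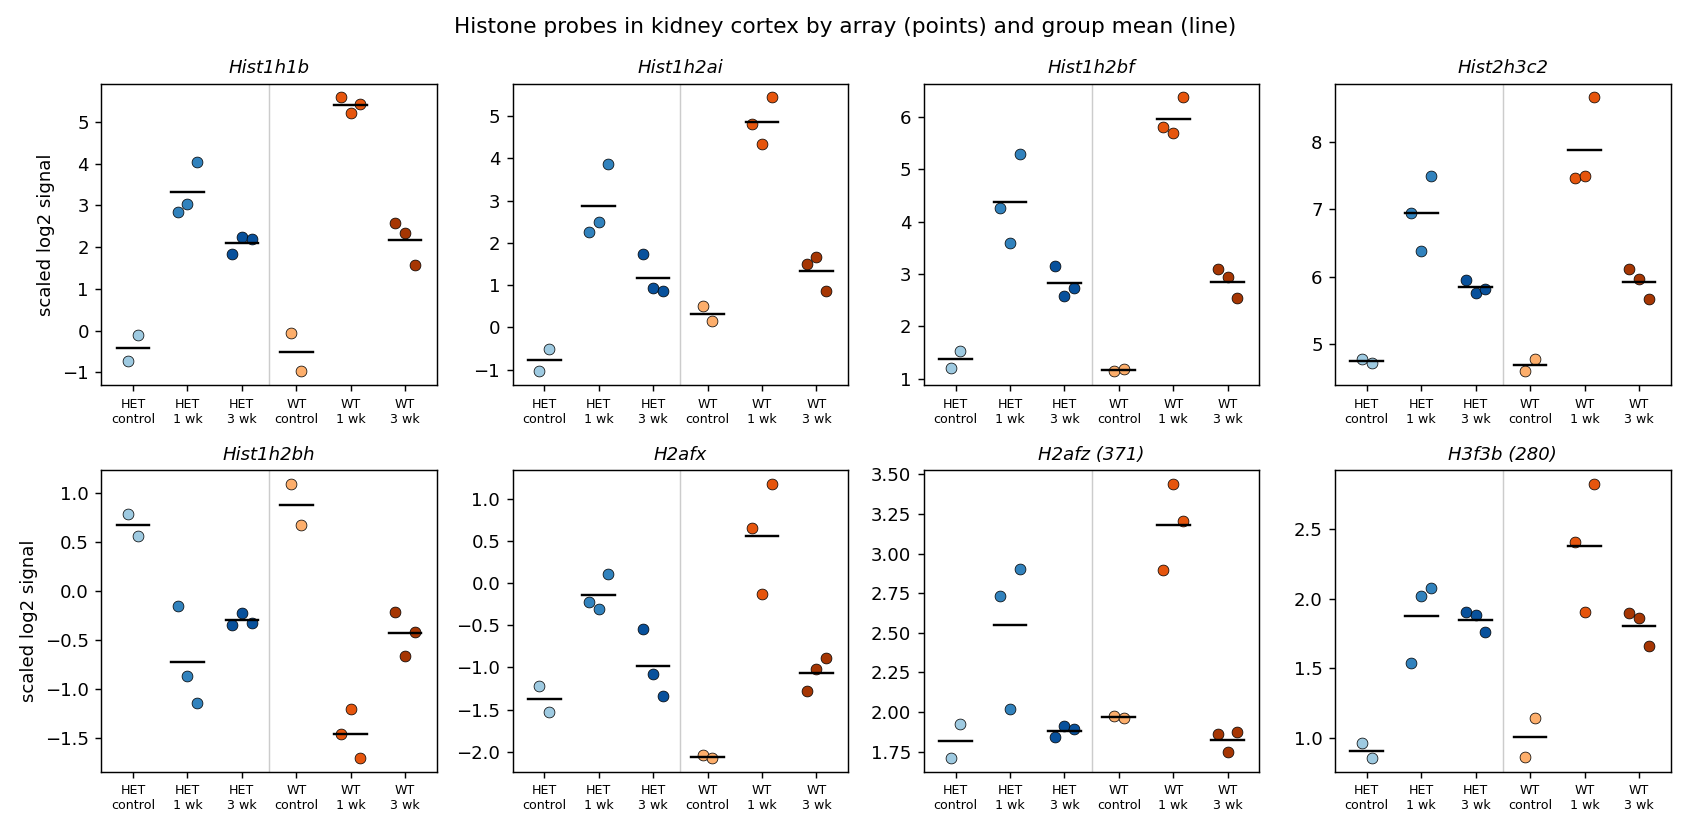
Scaled log2 signal of 8 histone probes on each of the 16 arrays, heterozygous arrays left of wild-type arrays and, within a genotype, control, 1 week and 3 weeks from left to right. Each point is 1 array and each line a group mean. Hist1h1b, Hist1h2ai, Hist1h2bf and Hist2h3c2 have their highest group means after 1 week in both genotypes, and Hist1h2bh has its lowest there. The number after H2afz and H3f3b is the first base of the probe in its transcript.

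The probes that fell at 1 week were 4, and the same 4 in both genotypes: Hist1h2bh (Hist1h2bq), 1 of 2 probes of Hist1h4b, Hist2h2aa2 and 1 of 2 probes of H2afj. The background of falls was 3.08% of all probes in heterozygous and 14.3% in wild-type cortex. Hist1h2bh was read by a single probe, which starts at base 889 of its transcript. It was at -0.15, -0.87 and -1.14 after 1 week in heterozygous cortex, against 0.79 and 0.57 in controls. Wild-type cortex gave -1.46, -1.20 and -1.70 after 1 week, against 1.10 and 0.67 in controls. Without overlap of the groups it fell by 1.40 ± 0.29 (adjusted p = 0.01, limma) and by 2.34 ± 0.29 (adjusted p = 6.2e-05) on the log2 scale. The heterozygous call was lost without control replicate 1 (adjusted p = 0.11), control replicate 2 (0.055) or 1-week replicate 3 (0.05).

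For Hist1h4b and H2afj, the fitted changes of the 2 probes of a gene had opposite signs in both genotypes, a pattern singled out after the values were seen. The positive change was called only for H2afj in wild-type cortex. In the genome the 2 Hist1h4b probes (chr17:50113699-50113758 and chr17:50117213-50117272) lie much farther apart than in the transcript. Whether both read the same mRNA was not tested. The Hist1h4b probe that starts at base 566 of its transcript was at 1.80, 1.81 and 1.53 after 1 week in heterozygous cortex, against 3.28 and 3.30 in controls. Its wild-type signal was at 2.41, 2.14 and 0.67 after 1 week, against 4.09 and 3.73 in controls. It changed by -1.57 ± 0.40 (adjusted p = 0.028, limma) and -2.17 ± 0.40 (adjusted p = 0.001), while the probe from base 200 gave 0.94 and 1.15 and was not called (adjusted p = 0.24 and 0.073). The heterozygous call was lost without either control (adjusted p = 0.15 each) and without 1-week replicate 1 (0.056) or 3 (0.095).

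H2afj encodes H2A.J, a variant whose gene gives a polyadenylated mRNA. Its probe from base 429, on the poly(A) signal shown above, was at 5.65, 5.89 and 5.63 after 1 week in heterozygous cortex, against 6.88 and 6.86 in controls. On wild-type arrays it was at 5.57, 5.61 and 4.56 after 1 week, against 7.08 and 6.96 in controls. All treated arrays were below all controls, and the changes were -1.15 ± 0.30 (adjusted p = 0.032, limma) and -1.77 ± 0.30 (adjusted p = 0.00059).
The probe from base 290, in the reading frame, was at 6.20, 6.36 and 7.25 after 1 week in heterozygous cortex, against 6.0 and 5.79 in controls. In wild-type cortex it was at 7.20, 6.98 and 7.58 after 1 week, against 5.96 and 6.30 in controls. These treated arrays were all above the controls, by 0.71 in heterozygous (adjusted p = 0.19) and 1.13 ± 0.32 in wild-type cortex (adjusted p = 0.015, limma). Without wild-type control replicate 1 the last call was lost (adjusted p = 0.13). The heterozygous fall of the other probe was lost without control replicate 1 (0.18), control replicate 2 (0.16), 1-week replicate 1 (0.076) or 1-week replicate 3 (0.1).
H2afj, bases 1 to 60 of the probe in the reading frame, chr4:173818960-173819019, plus strand: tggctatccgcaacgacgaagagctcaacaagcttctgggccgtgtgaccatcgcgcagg

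The probes named Hist2h2aa3 and Hist2h2aa2 lie on the minus strand of chromosome 2 with 63 bases between them. The Hist2h2aa2 probe comes after the stop codon that ends the Hist2h2aa3 probe, so both may read the same mRNA, which was not tested. They had changes of opposite sign, although the change of 0.62 of Hist2h2aa3 in heterozygous cortex was not called (adjusted p = 0.14, limma). The Hist2h2aa2 probe, which runs past the stem-loop, was at 4.18, 3.81 and 3.82 after 1 week in heterozygous cortex, against 5.64 and 5.80 in controls. For the wild type it was at 4.11, 4.08 and 2.48 after 1 week, against 5.55 and 4.71 in controls. All treated arrays were below all controls, and the changes were -1.78 ± 0.42 (adjusted p = 0.019, limma) and -1.57 ± 0.42 (adjusted p = 0.012). The wild-type change was -1.03 without 1-week replicate 3, and the call was lost without control replicate 1 (adjusted p = 0.15). The heterozygous call was lost without control replicate 1 (0.1), control replicate 2 (0.13) or 1-week replicate 3 (0.066).

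Replicate 3 of the wild-type group at 1 week had the highest signal of its group in the H4 coding probes and the lowest in these 4 probes. Without it all 31 calls were kept and 35 histone probes were called in wild-type cortex. The labelling kit primes from poly(A), and which forms of histone mRNA it copied was not tested.

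**Figure D3:**
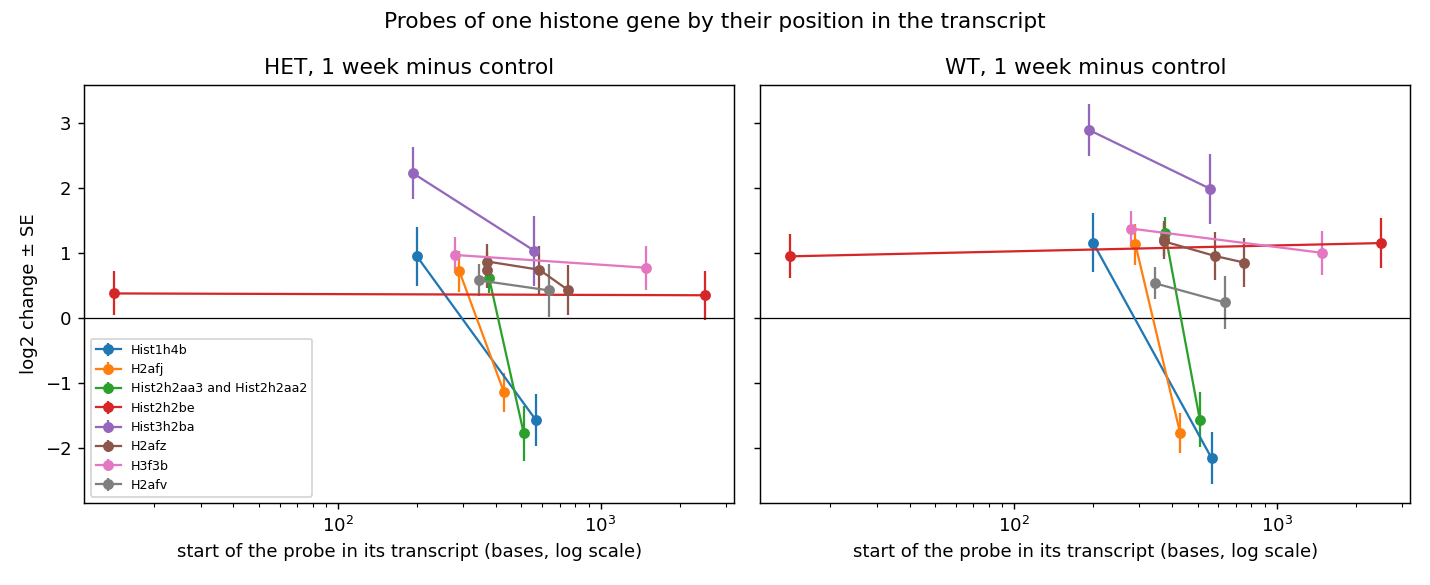
Change at 1 week (log2, treated minus control) against the first base of the probe in its transcript (log axis). Shown are the probes of 7 of the genes with several tested probes, and the adjacent probes named Hist2h2aa3 and Hist2h2aa2. Whether the probes of a gene read the same mRNA was not tested. Heterozygous cortex is on the left and wild-type cortex on the right, each colour is 1 gene or the pair, points are fitted changes and bars their standard errors. The points from base 429 (H2afj), 510 (Hist2h2aa2) and 566 (Hist1h4b) lie below 0 in both genotypes, and the other probe of each of these lies above 0.

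Of the 15 variant probes 2 rose and 1 fell in heterozygous cortex at 1 week, and 7 rose and 1 fell in wild-type cortex. Among all probes 4.37% rose and 3.08% fell in heterozygous cortex, and 13.3% rose and 14.3% fell in wild-type cortex. The single falls are near these shares. The difference between variant and cluster genes was not tested. H2afx (H2ax), whose product is phosphorylated around DNA breaks, was at -0.23, -0.31 and 0.11 after 1 week in heterozygous cortex, against -1.22 and -1.53 in controls. The wild-type values were 0.65, -0.14 and 1.17 after 1 week, against -2.04 and -2.08 in controls, both of which were not well above background. All treated arrays were above the controls, by 1.24 ± 0.34 in heterozygous (adjusted p = 0.04, limma) and at least 3.79-fold in wild-type cortex (adjusted p = 7.8e-05). The heterozygous call was lost without any 1 of its 5 arrays (adjusted p 0.056 to 0.25).

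H3f3b, a gene of the replication-independent H3, was called in both genotypes by the probe from base 280, at 1.53, 2.02 and 2.08 after 1 week in heterozygous cortex against 0.96 and 0.86 in controls. Wild-type cortex gave 2.41, 1.90 and 2.82 after 1 week, against 0.87 and 1.15 in controls. The groups did not overlap, and the changes were 0.96 ± 0.28 (adjusted p = 0.046, limma) and 1.37 ± 0.28 (adjusted p = 0.002). Its other probe, from base 1489, gave 0.77 (adjusted p = 0.18) and 1.00 (adjusted p = 0.038, limma), and that wild-type call was lost without either control (0.13 and 0.16) or without 1-week replicate 1 (0.12) or 2 (0.09).

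H2afz (H2az1), the H2A variant found at promoters, was read by 4 probes, which changed by 0.43 to 0.86 in heterozygous cortex, none called, and by 0.85 to 1.21 in wild-type cortex, 2 of 4 called (adjusted p = 0.0039 and 0.0053, limma). The 2 called probes differ at 3 of their 60 bases. H2afy (Macroh2a1), the macroH2A of repressed chromatin, changed by 0.60 in heterozygous (adjusted p = 0.13) and 1.01 ± 0.23 in wild-type cortex (adjusted p = 0.0051, limma) in its probe from base 1442. Its other tested probe, from base 630, changed by 0.85 in heterozygous and 0.55 in wild-type cortex and was called in neither. The changes of H2afv (H2az2), 0.57 and 0.42 in heterozygous and 0.53 and 0.23 in wild-type cortex, and of the linker variant H1f0, -0.09 and 0.35, were not called. Neither was that of H2afy2 (Macroh2a2), 0.06 and 1.24 (adjusted p = 0.96 and 0.056), a probe near background on many arrays.

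After 3 weeks fewer histone probes differed from control. In heterozygous cortex 7 rose and 1 fell, 8 of 47 against a background of 15.3% of all probes tested (9.07% for rises, 6.25% for falls). In wild-type cortex 6 rose and 2 fell, against a background of 14.5% (8.75% for rises, 5.71% for falls). These shares are near the background. Groups did not overlap for 33 probes in heterozygous cortex (60.2% of all probes) and for 29 in wild-type cortex (56.4%). The median change was 0.52 in heterozygous and 0.40 in wild-type cortex. The comparisons at 1 and 3 weeks share their control arrays.

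Hist1h1b was again the most changed, by 2.51 ± 0.40 in heterozygous (adjusted p = 0.00094, limma) and 2.68 ± 0.40 in wild-type cortex (adjusted p = 0.0007), and both calls were kept without any 1 array. Hist1h2bf changed by 1.45 and 1.69 (adjusted p = 0.024 and 0.011, limma), Hist3h3 by 1.16 and 1.19 (0.03 and 0.027) and Hist1h2bh by -0.98 and -1.31 (0.037 and 0.0086). Hist1h2ai changed by 1.95 in heterozygous cortex (adjusted p = 0.012) and by 1.01 in wild-type cortex, where it was not called (adjusted p = 0.16). Hist2h3c2 changed by 1.09 in heterozygous cortex, not called (adjusted p = 0.055), and by 1.23 in wild-type cortex (adjusted p = 0.036).

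Of the variants, both H3f3b probes rose in heterozygous cortex, by 1.32 ± 0.34 and 0.94 ± 0.28 (adjusted p = 0.017 and 0.034, limma), and neither was called in wild-type cortex (0.87 and 0.80, adjusted p = 0.095 and 0.066). The H2afy probe from base 1442 changed by 0.57 in heterozygous (adjusted p = 0.11) and 0.74 in wild-type cortex (adjusted p = 0.048). The 3-week counts rest on few arrays. Leaving out control replicate 1 left 1 call in either genotype, and leaving out control replicate 2 left 2. Without 3-week replicate 1, 3 were called in heterozygous and 4 in wild-type cortex, without 3-week replicate 2, 4 and 3, and without 3-week replicate 3, 2 and 5.

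Set against 1 week, the histone probes at 3 weeks had fallen back in wild-type cortex. There 23 of the 47 fell and 3 rose, against a background of 8.14% of all probes (2.87% for falls, 5.28% for rises), and the groups did not overlap for 37 (24.9% of all probes). The median change was -1.12. Hist1h1b changed by -3.25 ± 0.36 and Hist1h2bf by -3.10 ± 0.35 (adjusted p = 0.001 each, limma). Of the 26 cluster genes 17 fell and 2 rose, and of the 8 variant genes 2 fell. The 3 probes that rose were those of Hist1h2bh (1.02, adjusted p = 0.027), Hist2h2aa2 (1.69, adjusted p = 0.013) and the H2afj probe from base 429 (1.14, adjusted p = 0.018), all of which had been below control at 1 week. Both comparisons use the same 3 wild-type arrays at 1 week, and replicate 3 was the lowest of them for all 3 probes, so that the opposite signs are not independent.

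In heterozygous cortex the median change between 3 weeks and 1 week was -0.58, but 0 of the 47 probes were called (background 0.333%, limma). An unadjusted p under 0.05 was reached by 23 of them, with no share of all probes at that threshold beside it. Without heterozygous 1-week replicate 2, 3 were called. Hist1h1b changed by -1.22 (adjusted p = 0.19) and Hist1h2bf by -1.55 (adjusted p = 0.084) in this comparison.

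**Figure D4:**
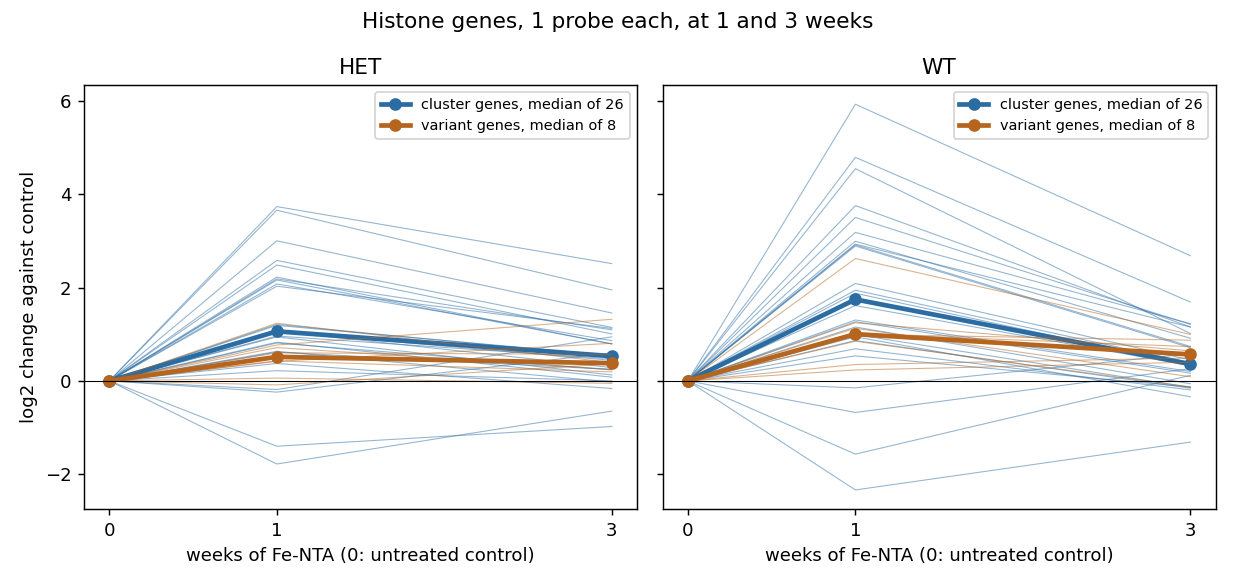
Change from control after 1 and 3 weeks (log2) for 34 histone genes, 1 probe each, heterozygous cortex on the left and wild-type cortex on the right. Thin lines are genes and thick lines the medians of 26 cluster and 8 variant genes. The cluster median in wild-type cortex is 1.75 at 1 week and 0.36 at 3 weeks, and in heterozygous cortex 1.06 and 0.53.

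Between the genotypes, 0 of 47 histone probes were called in untreated cortex (background 0%, limma; 1 at an unadjusted p under 0.05, Hist1h2ai) and 0 of 47 after 3 weeks (background 0%; 0 at an unadjusted p under 0.05). The groups did not overlap for 24 probes in untreated cortex, where each had 2 arrays (43.6% of all probes), and for 2 after 3 weeks (20.6%). After 1 week 2 of 47 were lower in heterozygous than in wild-type cortex, against a background of 0.519% of all probes (0.0685% for lower). An unadjusted p under 0.05 was reached by 26, but these backgrounds are shares at the adjusted p. No share of all probes at the unadjusted p is given beside that count. The groups did not overlap for 13 probes (12.6% of all probes). The 2 were Hist1h1b, with a difference of -2.10 ± 0.36 (adjusted p = 0.028, limma), and Hist1h2ai, with -1.99 ± 0.41 (adjusted p = 0.049).
All 3 heterozygous arrays were below all 3 wild-type arrays for both genes. Hist1h2ai was lower without overlap in untreated heterozygous cortex too, at a mean of -0.78 against 0.32 in untreated wild-type cortex, a difference of -1.10 ± 0.51 that was not called (adjusted p = 1, limma). Both calls were lost without wild-type 1-week replicate 3 (adjusted p = 0.083 and 0.14), wild-type replicate 2 (0.06 and 0.064), heterozygous 1-week replicate 1 (0.073 and 0.13) or heterozygous replicate 2 (0.2 and 0.29). That of Hist1h2ai was also lost without wild-type replicate 1 (0.064), and without heterozygous replicate 3, 5 probes were called.

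The changes from control at 1 week, which share no arrays between genotypes, had the same sign in 46 of 47 probes. All 17 probes that rose and all 4 that fell in heterozygous cortex were called in wild-type cortex too, where the 17 were 63% of those that rose. The change was smaller in size in heterozygous cortex for 41 of the 47. Such counts of sign, shared calls and size are given without a share over all probes. At 1 week, calls over all probes were also fewer in heterozygous (7.45%) than in wild-type cortex (27.6%). The test of that difference, the interaction of genotype with treatment, called 0 histone probes at 1 week (background 0%, limma; 6 at an unadjusted p under 0.05) and 0 at 3 weeks (background 0%; 0 at an unadjusted p under 0.05). For Hist1h1b the interaction at 1 week was -2.19 ± 0.56 (adjusted p = 0.3, limma) and for Hist1h2ai it was -0.89 ± 0.66 (adjusted p = 0.81). A genotype difference in the response was thus not shown for any histone probe. The counts at an unadjusted p have no share of all probes beside them. At 3 weeks the sign was shared by 36 of 47, and the 4 probes that rose in both genotypes were 57.1% of the 7 in heterozygous and 66.7% of the 6 in wild-type cortex.

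**Figure D5:**
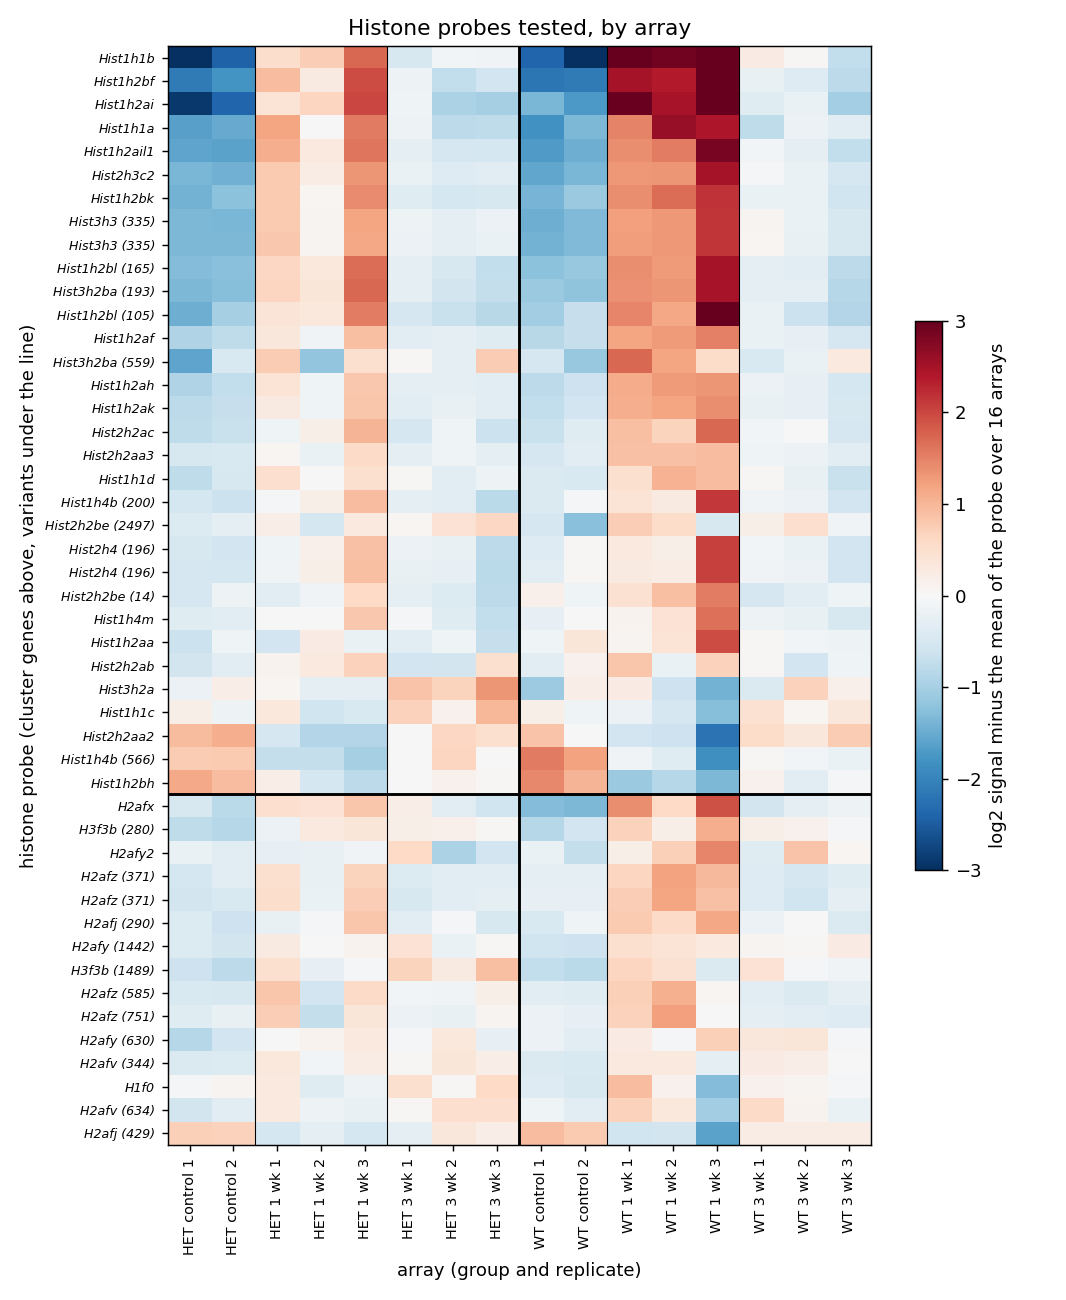
Scaled log2 signal of the 47 tested histone probes on the 16 arrays, shown as the difference from each probe's mean over all arrays, heterozygous columns left of wild-type columns. The 1-week columns hold the highest values of most cluster probes, and wild-type 1-week replicate 3 is the highest array for 26 of the 47 probes and the lowest for 8.

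Lists of genes that work with histones were read at the same time points. Of 20 listed S-phase genes, 18 were tested and 13 rose in heterozygous cortex at 1 week (median 1.85), where 4.37% of all probes rose, and 16 in wild-type cortex (median 2.72), where 13.3% rose. Of these 18, 10 were not well above background on every array, Top2a on 5 and Mcm6 on 7 of the 16, so that some passed the filter through the groups in which they were high. Among the 8 detected on all arrays 5 rose in heterozygous and 6 in wild-type cortex, with medians of 1.5 and 2.16. At 3 weeks 4 of the 18 rose in each genotype, where 9.07% of all probes rose in heterozygous and 8.75% in wild-type cortex. Mcm5, a subunit of the replicative helicase, rose by 3.08 in heterozygous (adjusted p = 0.00037, limma) and 4.19 in wild-type cortex (adjusted p = 6.8e-06) at 1 week. Of 19 listed histone chaperones and deposition factors, 14 were tested and 3 rose in heterozygous and 6 in wild-type cortex at 1 week (4.37% and 13.3% of all probes), with medians of 0.66 and 0.21. The 3 that rose in heterozygous cortex, Chaf1b, Hjurp and Ep400, were well above background on 14, 14 and 12 of the 16 arrays. Such genes may have passed the filter through the groups in which they were high. Among the 9 detected on all arrays 0 rose in heterozygous and 3 in wild-type cortex, with medians of 0.34 and 0.03. Of all probes so detected 2.57% and 9.65% rose.
Chaf1b, a subunit of the complex that loads new H3 and H4 behind the replication fork, rose by 2.85 in heterozygous cortex (adjusted p = 0.0015, limma) and at least 14.3-fold in wild-type cortex (adjusted p = 5.7e-06). Hjurp, the chaperone of the centromeric H3, rose by 2.18 (adjusted p = 0.0094) and at least 9.72-fold (adjusted p = 1e-04). At 3 weeks 4 of the 14 chaperones rose in heterozygous and 2 in wild-type cortex, where 9.07% and 8.75% of all probes rose, and the wild-type count is near that share. They included Chaf1b by 2.31 (adjusted p = 0.0036) and at least 4.38-fold (adjusted p = 0.00038).

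Of 12 listed genes of histone supply and histone mRNA processing, 10 were tested and 1 rose in heterozygous and 2 in wild-type cortex at 1 week, with medians of 0.47 and 0.08. With 4.37% and 13.3% of all probes rising, these counts are near the background. They were Nasp, a carrier of H1 and H3, at 1.30 ± 0.33 in heterozygous (adjusted p = 0.029, limma) and 1.72 ± 0.33 in wild-type cortex (adjusted p = 0.0015), and in wild-type cortex Lsm11, a part of the U7 particle that trims histone mRNA, at 0.99 (adjusted p = 0.014). Slbp, which binds the stem-loop, changed by 0.77 and 0.32 and was not called (adjusted p = 0.19 and 0.52). At 3 weeks 0 of the 10 were called in either genotype (limma).

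Markers of several other cell types also changed at 1 week, and their part in the result was not tested. The counts of markers called stand beside 4.37% of all probes rising and 3.08% falling in heterozygous cortex. In wild-type cortex these shares were 13.3% and 14.3%. The summed signal of 6 proximal tubule markers was 7.48 to 8.79 after 1 week, against 9.76 to 10.36 in controls, in heterozygous cortex (2 of 6 fell), and 5.72 to 7.27, against 10.12 to 10.48, in wild-type cortex (5 of 6 fell). That of 5 macrophage markers was 4.23 to 4.70, against 2.94 to 3.15, in heterozygous cortex (2 of 4 tested rose) and 4.26 to 5.56, against 2.89 to 3.25, in wild-type cortex (4 of 4 rose). That of 3 fibroblast markers was 4.58 to 5.64, against 3.46 to 3.79, in heterozygous cortex (1 of 3 rose) and 4.76 to 5.89, against 2.93 to 3.11, in wild-type cortex (3 of 3 rose).
The summed signal of 5 erythroid markers was 2.53 to 3.36, against 6.68 to 7.09, in heterozygous and 1.67 to 2.42, against 4.20 to 6.79, in wild-type cortex, and 4 of 5 fell in each. The S-phase list was at 4.77 to 6.30 in heterozygous cortex, against 3.66 to 3.67 in controls. In wild-type cortex it was at 6.27 to 7.01, against 3.68 to 3.74. At 3 weeks the macrophage sum was 4.9 to 5.9 in heterozygous and 5.1 to 5.7 in wild-type cortex. The fibroblast sum was then 5.2 to 6.1 and 4.6 to 6.0, and the proximal tubule sum 8.5 to 9.5 and 9.0 to 9.4. No thick limb and distal tubule, collecting duct, endothelium or neutrophil marker was called in heterozygous cortex at 1 week, and 1 of 3 podocyte markers fell. In wild-type cortex 1 of 4 thick limb and distal tubule, 1 of 3 endothelium and 1 of 3 podocyte markers fell. There 1 of 3 collecting duct markers rose. With 14.3% of all probes falling and 13.3% rising there, single calls in lists this short cannot be set apart from the background. Of 6 lymphocyte markers 1 was tested and not called, and neither of 2 adrenal markers was well above background on all arrays of a group. The arrays lay on 2 slides, each with arrays of all 6 groups. All histone probes called in the comparisons with control kept their sign within each slide. Their groups did not overlap over all arrays, so a change of sign within a slide was not possible. Within a slide 1 and 0 of the 21 calls in heterozygous cortex and 14 and 1 of the 31 in wild-type cortex at 1 week passed the test.

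The promoters of these genes carry shared short motifs. RefSeq promoters of the GRCr8 build were found for 42 of the 45 genes under their current names (30 cluster, 12 variant). The letters CCAAT, read on either strand (ATTGG), occurred in the 250 bases before the start of 28 of 30 cluster genes (93.3%), 7 of 12 variant genes (58.3%) and 11385 of 33469 genes in the table (34%). The letters TATAAA, on either strand (TTTATA), occurred in 18 of 30 cluster genes (60%), 2 of 12 variant genes (16.7%) and 4328 of all genes (12.9%). The last 150 bases before the start are shown for H1f5 (Hist1h1b) and H2bc8 (Hist1h2bf), which rose, and for H1f0, which was not called, with both motifs in capitals. A match of letters is a description of the window. In the 250 bases H2bc8 holds no TATAAA and H1f0 holds neither motif. Hist2h2aa2 and Hist1h2bq (Hist1h2bh), whose probes fell, hold CCAAT 3 times each on either strand.
H1f5, chr17:47421725-47421874, plus strand: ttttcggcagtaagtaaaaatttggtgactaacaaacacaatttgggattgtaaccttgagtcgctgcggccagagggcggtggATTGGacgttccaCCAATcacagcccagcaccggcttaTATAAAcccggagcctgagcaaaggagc
H2bc8, chr17:47404255-47404404, plus strand: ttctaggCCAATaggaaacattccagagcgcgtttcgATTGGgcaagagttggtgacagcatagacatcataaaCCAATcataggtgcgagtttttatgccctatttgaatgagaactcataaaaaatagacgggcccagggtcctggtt
H1f0, chr7:112473130-112473279, plus strand: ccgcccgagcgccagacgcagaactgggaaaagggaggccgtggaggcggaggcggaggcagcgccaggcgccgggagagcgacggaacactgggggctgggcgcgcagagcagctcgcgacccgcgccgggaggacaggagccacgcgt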

How the data were processed

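Total RNA of kidney cortex was labelled with Cy3 and read on 16 single-colour Agilent arrays. Per the file headers, the deposited scanner files hold spot intensity values from Agilent Feature Extraction 10.7, background-subtracted and not scaled between arrays. The authors' deposited table holds log2 values, found by comparison with the scanner values to be log2 processed signals from which each array's own 75th percentile was subtracted, without centring; it served as an alternative. Of 62976 spots per array, 4259 control spots were dropped, as were outlier-marked spots, and replicate spots of a probe were averaged.

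A value on each of the 16 arrays was available for 45483 probes, and 20431 of them passed the detection filter (well above background throughout 1 group or more). These entered a limma 3.58.1 fit (R 4.3.3) of 1 mean per group, with 10 residual degrees of freedom and a prior of 4.89. P-values were adjusted by Benjamini-Hochberg over the 20431 probes; an adjusted p under 0.05 is a call, and all p-values are two-sided. There were 11 comparisons. "At least N-fold" is a bound for probes not well above background on any array of a group: the mean of the other group against the mean of, per array, the higher of the lowest signal well above background and the probe's own. The number of arrays limits the precision. The fit was tested on simulated data.

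The histone genes described singly are the variants, the 10 cluster genes of highest mean signal, the 3 genes up and the 3 down with the smallest adjusted p among those called in each comparison with control, and 2 called genes in each other comparison; of each gene list, 2 genes. Genes named beyond this were chosen after their values were seen. A gene is represented by its probe of highest mean. The members and lists were chosen with earlier results of these data known. Alternatives were the filter, background correction, quantile scaling, the authors' table, dim values, slide, samples in the fit, 1 probe per gene, a replicate block and leaving out each array. With a control left out, the remaining one is assumed to vary like the other groups.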

Additional observations from a re-analysis of the deposited data

Results flagged for a closer look

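The variant H2afz at 3 weeks was singled out because every heterozygous array was above the mean of its controls and every wild-type array below the mean of its controls in 3 of its 4 probes. The heterozygous change minus the wild-type change was 0.21 for the first probe from base 371 (0.06 in heterozygous and -0.14 in wild-type cortex), 0.33 for the second probe from base 371 (0.14 and -0.19) and 0.32 for the probe from base 751 (0.19 and -0.13), on the log2 scale. The interaction of genotype with treatment tested these differences, and none was called (adjusted p = 0.97 each, limma). These 3 probes read the same mRNA and are not independent.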

How the results depend on the processing

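With all arrays, 21, 8, 31 and 8 histone probes were called in heterozygous cortex at 1 and 3 weeks and in wild-type cortex at 1 and 3 weeks, 26 in wild-type cortex at 3 weeks against 1 week and 2 between genotypes at 1 week. Without the filter on dim probes the counts were 11, 2, 28 and 1, with 18 and 0 in the last 2 comparisons. With normexp background correction 16 were called in wild-type cortex at 3 weeks, 1 in heterozygous cortex at 3 weeks against 1 week and 1 between genotypes at 1 week. Quantile normalization and slide as a block each left 1 between genotypes. Within slide 1 the counts were 1, 0, 14 and 1, then 3 and 0, and within slide 2 they were 0, 0, 1 and 0, then 0 and 0. With only the groups compared in the fit they were 16, 15, 21 and 15, then 17 and 0. With the replicate number as a block they were 17, 5, 31 and 5, then 26 and 1. Deviations of same-numbered arrays from their group means had a median correlation of 0.021 over 36 pairs, with a range of -0.316 to 0.434. In groups of 2 arrays the deviations mirror each other, so this median cannot tell whether the numbers mark a pairing. Leaving out 1 array gave 10 to 23, 1 to 4, 28 to 35 and 1 to 5, then 20 to 29 and 0 to 5, and 0 to 3 in heterozygous cortex at 3 weeks against 1 week. The authors' table, 1 probe per gene and dim values at the detection limit left every count within 1.5 times. The cause of these shifts was not tested, beyond fewer arrays or more probes in a fit. The comparisons with 0 calls in untreated cortex, between genotypes at 3 weeks and in both interactions stayed at 0 under all of these.

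Of 108 values of singly described genes, 52 were called, 51 of these lost the call under at least 1 alternative, mostly within a slide, and 0 changed direction. In fits on a part of the arrays a called value could not change direction, since the groups of every called probe did not overlap. The other 56 were not called. Of them, 19 were called and 20 changed sign under at least 1 alternative.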
